A study of Mus musculus with 7 samples.

Results

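Tumor-associated macrophages are described here as they stood in control mice, from the 4 libraries of the series that carry the control genotype label. They are 4 of its 7 libraries, they were taken by that label alone, and the other 3, from mice lacking Dicer1 in myeloid cells, enter no value below. The study asked what DICER, the RNase that makes mature microRNAs, does in macrophages of tumors. Control mice were homozygous for LysM-Cre with intact Dicer1 alleles (written D+/+), Lewis lung carcinoma cells had been injected under their skin, and F4/80+ cells were sorted by flow cytometry once tumors had formed. Lewis lung carcinoma (LLC) is a mouse lung tumor line, and F4/80 is the surface protein encoded by Adgre1. LysM-Cre is a Cre recombinase placed in the lysozyme M gene, Lyz2, and is active in macrophages and in neutrophils as well, so the controls share the recombinase and its altered locus with the deleted group. Ages, sex and whether a library held cells of 1 mouse or of several were not given in the labels, and the spread between libraries may therefore be partly technical.

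Macrophages take up particles and dying cells, degrade them in acidic lysosomes filled with cathepsins, and show the resulting peptides to T cells on MHC class II molecules. In tumors they arise largely from blood monocytes and differ by their surroundings, some making inflammatory products such as nitric oxide and interleukin 1, others arginase, scavenger receptors and matrix enzymes. The sort on F4/80 takes all such states together, and in bulk RNA fewer cells of a type and less RNA per cell cannot be told apart.

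The libraries held 42974524 to 51152370 uniquely placed reads, of which 84.4% to 88.2% lay in protein-coding genes, 9.19% to 11.6% in pseudogenes and 1.20% to 2.35% in mitochondrial ribosomal RNA. All counts were even numbers, as when both ends of a pair are counted. Of 15839 protein-coding genes listed in at least 1 library, 10433 reached 1 CPM (reads scaled to library size) in all 4, 1265 in 1 to 3 libraries, and 4141 in none. RPKM, which divides reads by gene length and library size, is the deposited level and the scale on which different genes are set side by side. CPM scaled by TMM factors, which remove differences in overall composition, is the scale of the SDs on log2, of the counts of genes past a fold and of the log2 deviations. Values with ± are means and SDs of RPKM. By mean RPKM, 56 of the 15839 genes stood at 1000 or more, 654 at 100 or more, and 3902 at 10 or more, the background for the list counts below. Replicates 1 to 4 are always given in that order, each group value has n = 4, and no test between groups was run because no contrast was made.

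Markers of the labelled cell type were read first. Cd68, a lysosomal glycoprotein of macrophages, was listed at 2916, 3679, 2157 and 2505 RPKM and ranked 14 of 15839 coding genes. Adgre1, which encodes the sorted F4/80 antigen, stood at 127, 152, 257 and 162 RPKM. Csf1r, the receptor for the growth factor that keeps macrophages alive, stood at 109.5, 98.8, 162 and 109 RPKM. Cd74, the chain that guards new MHC class II molecules, was the most abundant coding transcript of all at 13643, 11741, 5199.7 and 12931 RPKM. All 4 markers were therefore present in every library, within the top 3.49% of coding genes by mean RPKM. Adgre1 and Csf1r were highest in replicate 3, where Cd74 and Cd68 were lowest in RPKM. After a correction for transcript length, described with the likeness of the libraries, Cd68 stood at 3168, 3935, 3259 and 3993.5 CPM, lowest in replicate 1. Cd74 stayed lowest in replicate 3 on that scale, at 17796, 15252, 8271 and 21557 CPM. Of 19 genes in the macrophage identity list, 18 had a mean of at least 10 RPKM, and the median member stood in the top 2.60% of coding genes, where the median of all coding genes is by construction at 50%. Dicer1 itself was low, at 1.54, 1.46, 1.93 and 1.69 RPKM.

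Transcripts of antigen presentation, actin, lysosomal proteases, complement and chemokines filled the top of the list. After Cd74 came a predicted gene (ENSMUSG00000090378) at 8187, 6929, 4680 and 4470.2 RPKM. Actb, which encodes cytoskeletal beta actin, followed at 5381, 6238, 5948 and 5702 RPKM. Ctss, the cathepsin that trims the Cd74 chain in endosomes, stood at 5837, 6529, 3479 and 6526 RPKM. B2m, the light chain of MHC class I, stood at 6104, 6400.2, 3321 and 5427 RPKM. Actb was close to the same level in all 4 libraries, while Ctss and B2m were lowest in replicate 3. Tmsb4x, which encodes the actin-binding thymosin beta 4, was at 4580, 6235, 2867 and 2756 RPKM, with replicates 1 and 2 above replicates 3 and 4. After the length correction it stood at 5185, 6888, 4878 and 5052 CPM, with replicate 1 close to replicates 3 and 4. Further members of the first 30 were Tyrobp and Fcer1g, adaptors that carry signals from activating and Fc receptors, Spp1, the secreted phosphoprotein osteopontin, Lgals1, the lectin galectin 1, Alox5ap, a protein needed for leukotriene synthesis, and the cathepsin gene Ctsb with the cathepsin inhibitor gene Cstb. Their mean levels were 3252 RPKM for Tyrobp, 2418 RPKM for Fcer1g, 2000.5 RPKM for Spp1, 2078 RPKM for Lgals1, 1908 RPKM for Alox5ap, 1786 RPKM for Ctsb and 1724 RPKM for Cstb. Crip1, a small zinc-binding protein, S100a6, a calcium-binding protein, Ubb, a polyubiquitin gene, and Eef1a1, a translation elongation factor, completed the named genes that belong to no immune pathway, at means of 2593 RPKM, 1709.5 RPKM, 2624 RPKM and 1580.5 RPKM in that order.

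The order among these genes was loose. All 29 neighbouring pairs in the first 30 had ranges over the 4 libraries that overlapped, and of 435 possible pairs 117 had separate ranges. Cd74 lay wholly above 20 of the other 29 genes, Actb above 20 and Ctss above 12. Of the 100 genes highest by mean RPKM, 72 were in the first 100 of every library, and 134 genes entered the first 100 of at least 1 library. The coefficient of variation of RPKM in the first 30 ran from 6.26% for Actb to 78.96% for Pf4, with a median of 27.0% over the first 100. Replicate 2 held the highest RPKM for 23 of the first 30 genes, and replicate 3 the lowest for 17. Over the 5675 coding genes with a mean of at least 20 CPM, and on the CPM scale, replicate 2 was highest for 25.4% and replicate 3 lowest for 24.7%. These counts and shares are not corrected for transcript length. In the shortest 20% of genes the median log2 deviation was 0.37 in replicate 2 and -0.31 in replicate 3. After the length correction Cd68 and B2m were highest in replicate 4, and C1qb, Pf4 and Lyz1 still in replicate 2. The counts were not recomputed on that scale. The first 10 genes of a library took 9.75%, 11.1%, 7.29% and 9.11% of its protein-coding reads and the first 100 took 30.8%, 34.5%, 26.8% and 30.5%. Replicate 2 was the most concentrated, with 50% of coding reads in 301 genes, and replicate 3 the least, with 494.

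**Figure D1:**
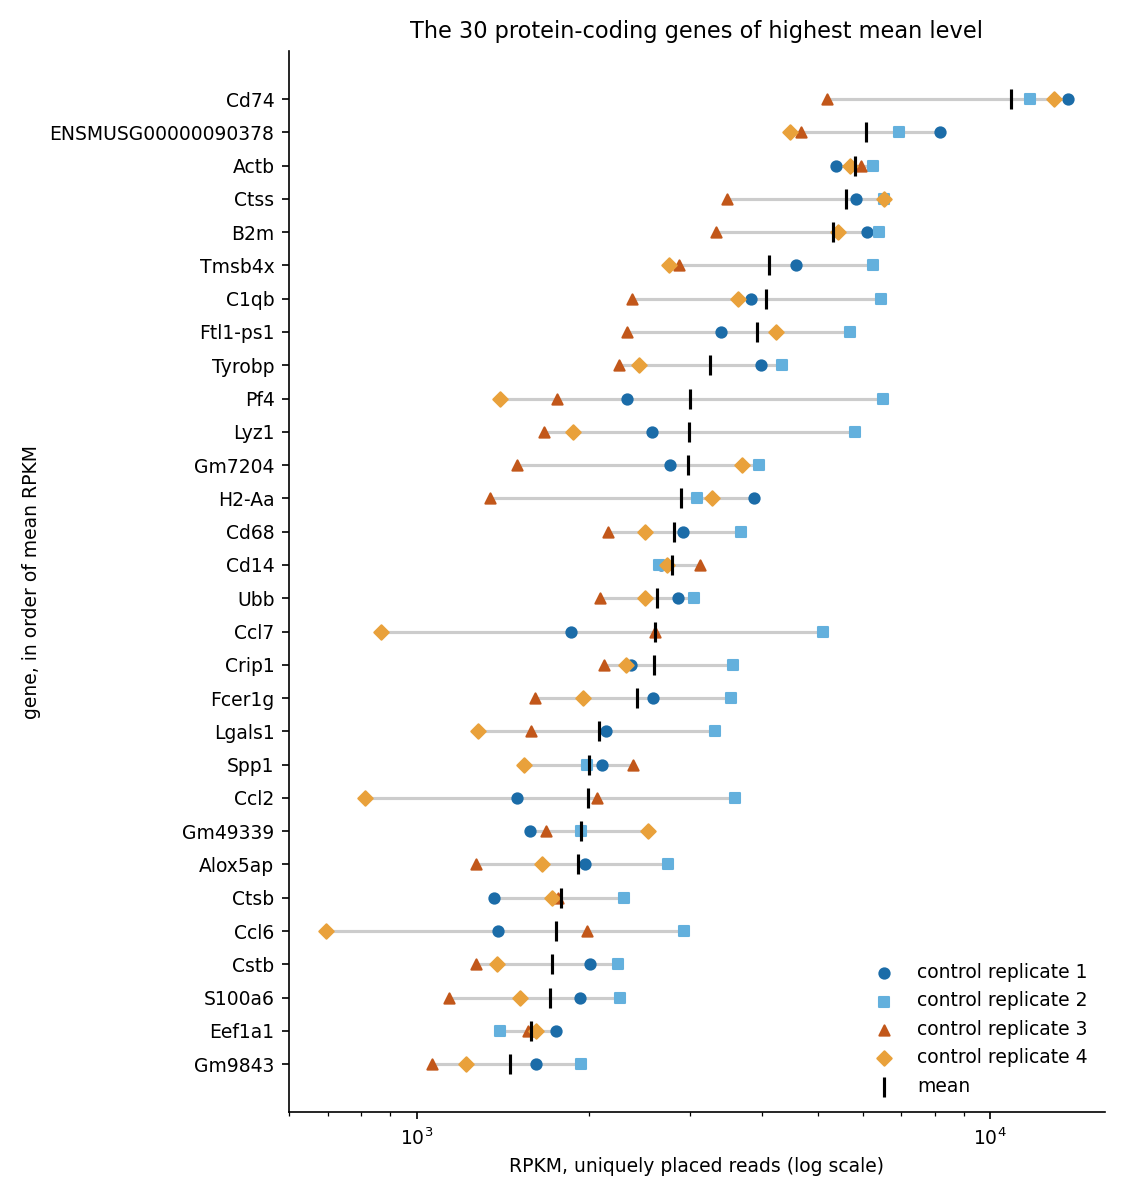
RPKM (log axis) of the 30 protein-coding genes with the highest mean, 1 point per control library, the bar marking the mean of the 4 and the grey line their range. Cd74 leads in replicates 1, 2 and 4 but not in replicate 3, and the chemokine genes Pf4, Ccl7, Ccl2 and Ccl6 have the longest lines, while Actb, Cd14 and Eef1a1 have short ones.

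The MHC class II list was high as a whole, and most of its abundant members were lowest in replicate 3, with H2-Ab1 and Ifi30 as exceptions. Of its 12 listed members, 8 had a mean of at least 10 RPKM and 7 of at least 100, and the summed level was 20668, 17563, 8706 and 20216 RPKM. H2-Aa, the class II alpha chain, stood at 3869, 3082, 1342 and 3266 RPKM. H2-Eb1, the class II beta chain of the E locus, stood at 1478, 1294, 555 and 1395 RPKM. The ratio of Cd74 to H2-Aa was nevertheless 3.53, 3.81, 3.88 and 3.96, and that of H2-Eb1 to H2-Aa 0.382, 0.420, 0.414 and 0.427. Cd74, H2-Aa and H2-Eb1 were thus each lowest in replicate 3, by about the same factor. H2-Ab1, the beta chain that pairs with H2-Aa, stood at 359.99, 308, 919.6 and 1711 RPKM, and its ratio to H2-Aa was 0.0931, 0.100, 0.685 and 0.524. Replicates 3 and 4 were far above replicates 1 and 2 in that ratio. H2-DMa and H2-DMb1, which exchange peptides on class II molecules, had means of 351 ± 113 RPKM and 197 ± 58.6 RPKM (SD), both lowest in replicate 3. Ifi30, a lysosomal reductase that unfolds antigens, stood at 569, 516, 337 and 285 RPKM, lowest in replicate 4. H2-Eb2 was under 1 CPM in all 4 libraries.

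The starts of H2-Aa and H2-Eb1 are shown because both genes kept a nearly constant ratio to each other and to Cd74 across the libraries. The 120 bases before each start are given 5′ to 3′ from RefSeq promoters on GRCm38.p6, H2-Aa at chr17:34287824-34287943 on the minus strand and H2-Eb1 at chr17:34305747-34305866 on the plus strand, with CCAAT, read on either strand, in capitals.
H2-Aa: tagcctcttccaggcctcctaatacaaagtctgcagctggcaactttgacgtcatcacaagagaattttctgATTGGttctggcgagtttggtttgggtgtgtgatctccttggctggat
H2-Eb1: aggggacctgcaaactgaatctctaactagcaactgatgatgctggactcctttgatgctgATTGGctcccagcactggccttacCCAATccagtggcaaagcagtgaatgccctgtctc
CCAAT occurred on either strand within 250 bases before the start of 7 of the 9 list members that matched the promoter table, against 34.5% of all 27025 promoters there and 36.7% of those of coding genes with a mean of at least 20 CPM. TATAAA occurred in none of those 9, against 12.97% of all promoters. A match is a description of letters and not a bound site.

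Class I presentation was lower in sum. The 15 listed members came to 7906, 8153, 5289 and 7847 RPKM, mostly B2m. H2-D1, a classical class I heavy chain, stood at 393, 432, 295 and 354 RPKM. H2-K1, the other classical heavy chain, stood at 252, 268, 472 and 649 RPKM. Psmb8, an immunoproteasome subunit, stood at 78.9, 82.9, 185 and 283 RPKM. H2-K1 and Psmb8 were higher in replicates 3 and 4 than in replicates 1 and 2 without overlap, as H2-Ab1 was, while H2-D1 was lowest in replicate 3. Class I genes have close copies that can share reads, and 3.84% of the reads at H2-D1 and 2.13% at H2-K1 were placed at several loci.

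Complement and Fc receptor genes were strong and highest in replicate 2. C1qb, a chain of the recognition molecule C1q, stood at 3823, 6445, 2378 and 3636 RPKM. C1qa, its partner chain, stood at 552, 958, 352 and 603 RPKM, and the ratio of C1qb to C1qa was 6.93, 6.73, 6.75 and 6.03. Both chains were highest in replicate 2 and lowest in replicate 3. C1qc had a mean of 293 ± 115 RPKM (SD). Cfp, which encodes properdin, had 754 ± 228 RPKM, and the receptors C5ar1 and C3ar1 for complement fragments had 685 ± 173 RPKM and 525 ± 80.97 RPKM. Of 16 members, 10 had a mean of at least 10 RPKM, while Cfd and Serping1 were under 1 CPM in all 4 libraries. Among the 8 Fc receptor genes, Fcgr3, a low-affinity IgG receptor, led after the shared chain Fcer1g at 672, 906, 463 and 632 RPKM. Fcgr2b, the inhibitory IgG receptor, had 295 ± 40.8 RPKM, Fcgr1, the high-affinity receptor, 169 ± 36.8 RPKM, and Fcgr4 104 ± 29.1 RPKM (SD). Fcgrt, which protects IgG from degradation, stood at 93.2, 268, 144 and 55.6 RPKM. It was the 1 gene with a spread of at least 4-fold among 6 Fc receptor genes with a mean of at least 20 CPM. Among all 5675 coding genes at that level 3.74% had such a spread. The IgE receptor genes Fcer1a and Fcer2a were under 1 CPM in all 4 libraries.

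By summed level, lysosomal genes were among the more even groups. The 30 proteases and hydrolases summed to 18524, 19965, 16474 and 18541 RPKM, a ratio of highest to lowest of 1.21 in RPKM and 1.34 in CPM, and 28 of the 30 had a mean of at least 10 RPKM. Behind Ctss and Ctsb came Lgmn, an asparaginyl protease, at 1349 ± 282 RPKM, and the cathepsins Ctsz at 1161 ± 113 RPKM and Ctsk at 1204 ± 1009 RPKM (SD). Of the 28 members with a mean of at least 20 CPM, 2 spread at least 4-fold, against 3.74% of all 5675 coding genes at that level. Ctsk was 1 of these 2 and is described with the osteoclast-like genes. The 17 listed genes of the vacuolar proton pump, which acidifies lysosomes, summed to 3318, 2755, 3294 and 2720 RPKM. All 17 had a mean of at least 20 CPM, and 2 of them, Atp6v0d2 and Atp6v1b2, spread at least 4-fold. Atp6ap1, an accessory subunit, led them at 361 ± 49.8 RPKM.

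Chemokine genes were abundant and spread widely. Their summed level was 10931, 25045, 12055 and 7160.3 RPKM, and 10 of the 17 members with a mean of at least 20 CPM differed at least 4-fold between their highest and lowest library, a spread that 3.74% of all 5675 coding genes at that level showed. Pf4, platelet factor 4, also made by macrophages, stood at 2331, 6492, 1755 and 1396 RPKM. Ccl7, a ligand of monocyte receptors, stood at 1856, 5104, 2606 and 866 RPKM. Ccl2, the main attractant of Ccr2-bearing monocytes, stood at 1494, 3595, 2059 and 812 RPKM. Replicate 2 was highest and replicate 4 lowest for all 3. Ccl6 was at 1387, 2925, 1984 and 695 RPKM, Ccl12 at 596, 1574, 465 and 236 RPKM, and Ccl8 at 529, 1462, 477 and 129 RPKM, again highest in replicate 2 and lowest in replicate 4. Ccl9 was more even, at 718, 770.3, 731 and 422 RPKM. Ppbp, a chemokine stored in platelets, stood at 302, 1028, 84.2 and 73.3 RPKM, with replicate 2 again highest. The other 3 of the 10 had other patterns. Cxcl1, a neutrophil attractant, was highest in replicate 4 at 202, 235, 392 and 887 RPKM. Cxcl9, a T cell attractant induced by interferon gamma, stood at 34.3, 24.8, 3.06 and 38.02 RPKM and was low in replicate 3 alone. Ccl24, an eosinophil attractant, stood at 19.4, 33.7, 78.5 and 2.22 RPKM and was low in replicate 4.

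Markers of platelets were read beside Pf4 and Ppbp. Itga2b, which encodes a platelet integrin chain, stood at 0, 0.02, 0.11 and 0.12 RPKM, and Gp9, a platelet glycoprotein, at 0, 0, 0 and 0.06 RPKM. Both were thus at or near 0 in every library, including replicate 2. For chemoattractant receptors, none of the 10 receptor genes with a mean of at least 20 CPM reached a 4-fold difference. Among all 5675 coding genes at that level 3.74% did, a share at which a list of 10 can easily hold none. Ccr1 had 286 ± 61.3 RPKM and Ccr2 118 ± 75.8 RPKM (SD). Cxcr2, the neutrophil receptor for Cxcl1, was under 1 CPM in all 4 libraries.

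The starts of Pf4 and Ccl12, both abundant chemokine genes, are shown as examples. Both had a promoter in the table and differed between libraries in the same direction. Ccl6, more abundant than Ccl12, did so too, but its 120 bases held none of the searched motifs and are not printed. The 120 bases before the start lie at chr5:90772315-90772434 and chr11:82101725-82101844, both on the plus strand, with the matches in capitals, for Pf4 a CCAAT and a GAGGAA read on either strand, and for Ccl12 a TATAAA box.
Pf4: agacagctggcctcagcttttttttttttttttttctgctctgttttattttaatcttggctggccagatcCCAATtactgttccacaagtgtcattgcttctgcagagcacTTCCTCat
Ccl12: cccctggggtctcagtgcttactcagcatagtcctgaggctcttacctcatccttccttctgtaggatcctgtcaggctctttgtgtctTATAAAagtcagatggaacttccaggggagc
TATAAA occurred on either strand in 7 of 16 chemokine promoters that matched, among them Ccl12 and Ppbp but not Pf4, against 12.97% of all promoters and 6.60% of those of coding genes with a mean of at least 20 CPM.

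Markers used to name inflammatory and alternative activation were present together. Il1b, the cytokine interleukin 1 beta, stood at 1059, 540.1, 1342 and 914 RPKM. Arg1, arginase 1, which breaks down arginine, stood at 946, 1323, 708.5 and 1689 RPKM. Nos2, the inducible nitric oxide synthase that uses the same substrate, stood at 3.46, 1.61, 1.57 and 23.4 RPKM. Arg1 was abundant in all 4 libraries, and Nos2 was more than 10 RPKM in replicate 4 alone, so that the ratio of Arg1 to Nos2 was 273, 822, 451 and 72.1. Slc7a2, an arginine transporter chosen here after its values were seen, had 1.76, 1.82, 1.57 and 11.8 RPKM and was likewise high in replicate 4. Of the 18 genes of the M1-like list, 11 had a mean of at least 10 RPKM, against 17 of the 26 of the M2-like and resident list. Among all 15839 coding genes, 3902 reached that level. Cxcl10, an interferon-induced chemokine, was even at 149.97, 135, 129 and 142 RPKM. Cd86, a costimulatory ligand, had 84.7 ± 18.1 RPKM (SD). Ptgs2, the inducible prostaglandin synthase, stood at 21.9, 12.9, 164 and 66.8 RPKM, highest in replicate 3. Tnf, the cytokine tumor necrosis factor, stood at 15.2, 22.1, 19.3 and 72.2 RPKM, highest in replicate 4.

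In the M2-like and resident list, Mrc1, the mannose receptor, stood at 71.5, 128, 178 and 81.5 RPKM. Folr2, a folate receptor of resident macrophages, stood at 303, 842, 314 and 248 RPKM. Cbr2, a carbonyl reductase found in resident macrophages, stood at 156, 651, 241 and 48.4 RPKM. Folr2 and Cbr2 were highest in replicate 2 and lowest in replicate 4, as Pf4, Ccl2 and Ccl7 were. F13a1, coagulation factor XIII A, stood at 48.1, 79.8, 300.1 and 38.05 RPKM, with replicate 3 highest. Mgl2, a lectin of dermal macrophages and dendritic cells, stood at 32.4, 22.6, 85.02 and 4.56 RPKM. Of the 17 members with a mean of at least 20 CPM, 9 spread at least 4-fold, against 3.74% of all 5675 coding genes at that level. Among these 9 was Lyve1, a hyaluronan receptor, at 10.1, 32.2, 40.8 and 3.63 RPKM. The median member deviated from its own mean by -0.24, 0.21, 0.92 and -1.13 on the log2 scale of CPM in the 4 libraries, against -0.03, -0.05, 0.03 and 0.04 for all 8994 coding genes with a mean of at least 5 CPM. The median of this list was thus lowest in replicate 4 and highest in replicate 3. Its summed RPKM went another way, at 1896, 3354, 2619 and 2372, lowest in replicate 1 and highest in replicate 2. Summed in CPM it was 4194, 6769, 7148 and 5121, lowest in replicate 1 but highest in replicate 3, so the highest library depended on the scale. Replicate 4 was highest for Nos2, Tnf and Cxcl1, and for Il1a, the interleukin 1 alpha gene, at 9.48, 7.98, 25.9 and 96.9 RPKM. Cxcl1 and Il1a belong to neither list. Arg1 of the M2-like list was highest in replicate 4 too, while Il1b and Ptgs2 of the M1-like list were highest in replicate 3. The M1-like list summed to 1489, 932, 1947 and 1518 RPKM, highest in replicate 3. Its median member deviated by -0.19, -0.16, 0.10 and 0.35 on the log2 scale of CPM, highest in replicate 4.

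Other cytokine genes ranged from abundant to undetected. Il1rn, the interleukin 1 receptor antagonist, had 343 ± 118 RPKM, Osm, oncostatin M, 83.5 ± 51.3 RPKM, and Il18 75.3 ± 23.8 RPKM (SD). Il23a, Il12a, Ifng and Csf2 were under 1 CPM in all 4 libraries. The type I interferon list had 20 of 24 members at 10 RPKM or more, led by Ifitm3, a membrane protein that restricts viral entry, at 1404, 1571, 1004 and 777 RPKM. Of its 22 members with a mean of at least 20 CPM, 6 spread at least 4-fold (Ifit1, Ifit2, Ifit3, Isg15, Mx1 and Rsad2). Among all 5675 coding genes at that level 3.74% did. Isg15, a ubiquitin-like modifier, stood at 21.9, 10.5, 57.98 and 23.5 RPKM, and Ifit1, which binds viral RNA, at 16.2, 8.49, 55.8 and 42.1 RPKM, both highest in replicate 3 and lowest in replicate 2. Among pattern recognition genes, Cd14, the lipopolysaccharide coreceptor, was the highest, at 2666, 2644, 3119 and 2735 RPKM. It also had the smallest SD of log2 CPM of that list, 0.046, which became 0.230 after a correction for transcript length. Tlr2, a receptor for bacterial lipoproteins, had 107 ± 43.3 RPKM (SD), and Tlr11 and Tlr12 were under 1 CPM in all 4 libraries. Fos, an immediate early transcription factor that responds to cell handling, stood at 621, 651, 751 and 547 RPKM. Nfkbia, which encodes an inhibitor of NF-kappa-B, stood at 84.7, 91.7, 542 and 476 RPKM. It was the only wide-spread member among 20 immediate early and heat shock genes with a mean of at least 20 CPM. Among all 5675 coding genes at that level the share was 3.74%.

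Genes of lipid and iron handling were expressed throughout. Lgals3, galectin 3, led the lipid list at 1158, 1463, 956 and 1664 RPKM. Apoe, apolipoprotein E, stood at 249, 612, 177 and 149 RPKM, highest in replicate 2. Plin2, which coats lipid droplets, had 323 ± 74.7 RPKM, and Pltp, a phospholipid transfer protein, 307 ± 62.9 RPKM (SD). Hmox1, the heme-degrading oxygenase, stood at 619, 1349, 355 and 1707 RPKM. Slc40a1, the iron exporter ferroportin, stood at 14.6, 23.9, 8.15 and 55.7 RPKM. Both were highest in replicate 4 and lowest in replicate 3. Tfrc, the transferrin receptor that imports iron, stood at 16.6, 3.75, 49.4 and 9.75 RPKM and was highest in replicate 3. Hemoglobin transcripts moved with Hmox1 and Slc40a1. Hba-a1, an alpha globin gene, stood at 30.6, 42.1, 13.8 and 77.3 RPKM, and Hbb-bs, a beta globin gene, at 28.5, 36.6, 9.15 and 70.96 RPKM, both highest in replicate 4 and lowest in replicate 3. The part of red cell material in the values of the heme genes was not tested. For uptake of dying cells, Msr1, a scavenger receptor, had 437 ± 107 RPKM, Clec4n, a lectin, 572 ± 132 RPKM, and Trem2, a lipid-sensing receptor, 54.6 ± 12.6 RPKM (SD), while Marco was under 1 CPM in all 4 libraries.

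Markers of other cell types were low. Over 12 lists, 63 of 128 listed markers were under 1 CPM in all 4 libraries, against 4141 of all 15839 coding genes. Among the first 1000 of the 15839 were 2 of the markers, Ppbp and Il1r2. The levels of all 128 markers together came to 4.72%, 6.54%, 5.26% and 5.11% of the summed RPKM of the macrophage identity list, and to 2.94%, 1.98%, 4.61% and 4.57% without Ppbp. The epithelial and carcinoma list summed to 2.18, 0.74, 3.08 and 3.36 RPKM, and 8 of its 10 listed markers, Krt8, Krt18 and Epcam among them, were under 1 CPM in all 4 libraries. Endothelial markers summed to 3.49, 2.41, 3.90 and 5.47 RPKM and fibroblast markers to 17.5, 18.6, 10.4 and 16.03 RPKM, led by Dcn, a matrix proteoglycan, at 5.20 ± 1.48 RPKM. T and NK cell markers summed to 28.4, 17.7, 34.5 and 83.3 RPKM, most of it Il7r, a cytokine receptor, at 15.4, 9.42, 20.5 and 71.9 RPKM. Cd3e, a T cell receptor chain, was at 0.12, 0.26, 0.13 and 0.16 RPKM, and 14 of the 22 listed markers were under 1 CPM in all 4 libraries. Neutrophil markers summed to 178, 149, 206 and 103 RPKM, led by mean level by Il1r2, the decoy interleukin 1 receptor, at 107, 11.3, 128 and 38.5 RPKM. Retnlg, of the same list, had another order, at 17.9, 87.15, 44.3 and 4.77 RPKM, and exceeded Il1r2 in replicate 2. S100a8, an abundant neutrophil transcript, gave 21.7, 21.2, 9.25 and 38.97 RPKM, and Elane and Mpo, granule enzymes, were under 1 CPM in all 4 libraries. The immunoglobulin gene Ighm stood at 45.3, 34.99, 39.7 and 20.9 RPKM, while Cd79a and Pax5 of B cells were under 1 CPM in all 4 libraries.

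**Figure D2:**
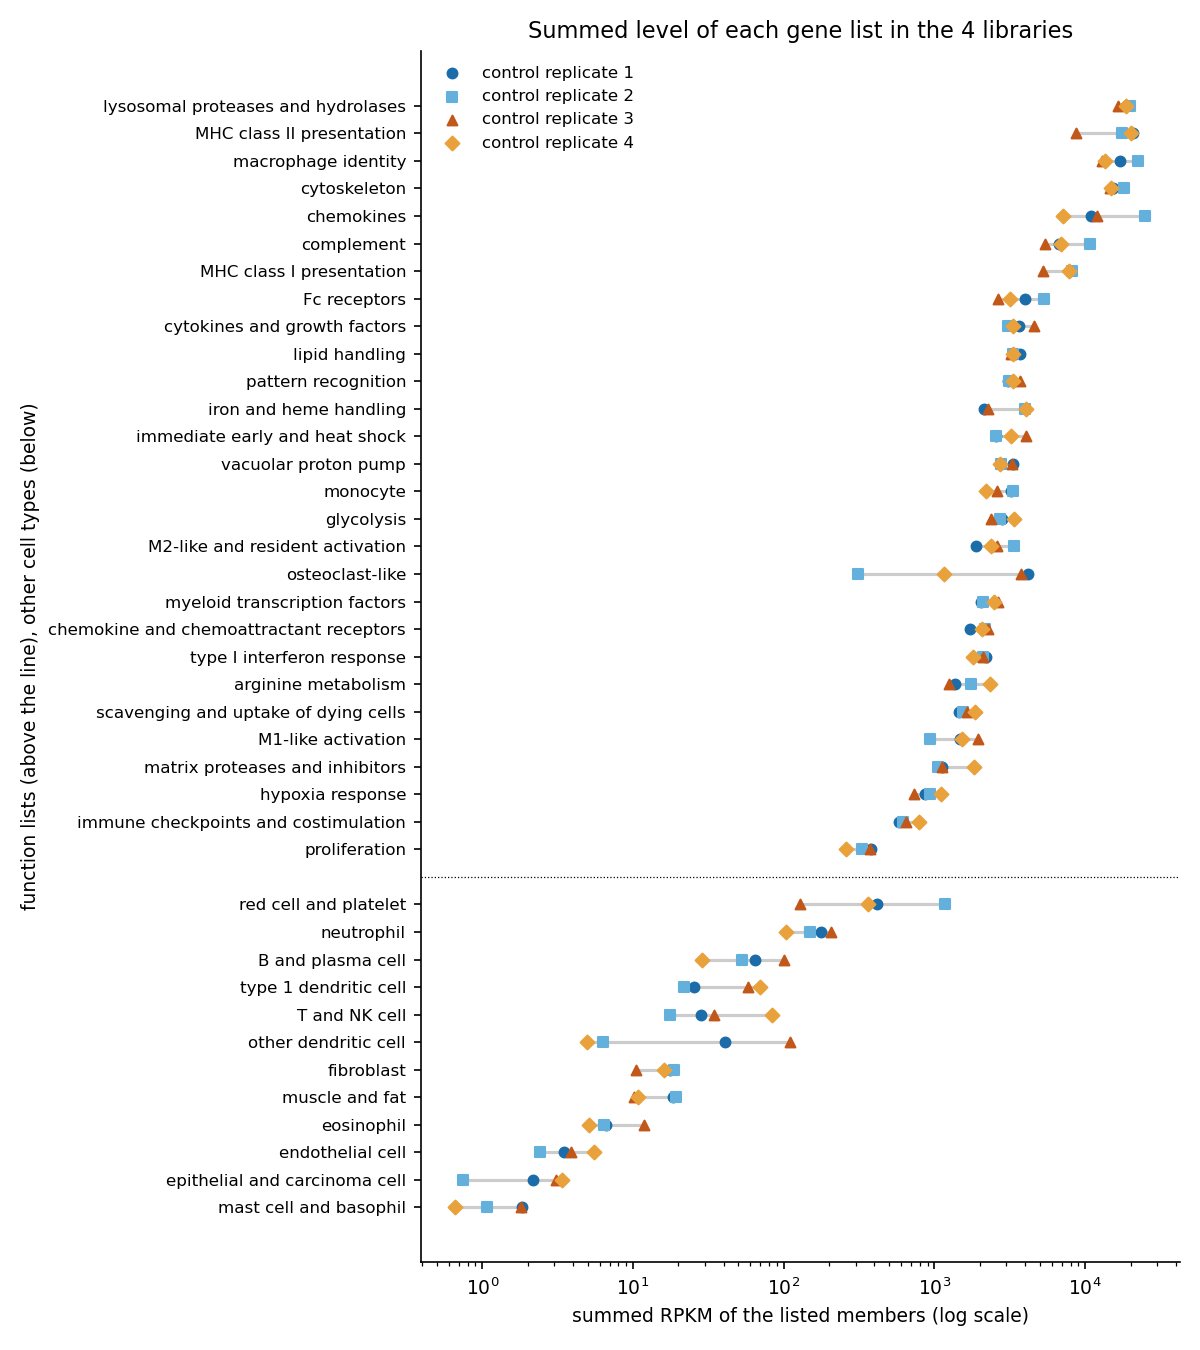
Summed RPKM (log axis) of the listed members of each gene list, 1 point per control library and a grey line for the range, with 28 function lists above the dotted line and 12 lists of other cell types below it. The osteoclast-like list has the longest line of the upper block, from 313 to 4148, and every list of another cell type except that of red cells and platelets lies below the lowest function list.

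Across the 5675 coding genes with a mean of at least 20 CPM, the SD of log2(CPM + 1) over the 4 libraries had a median of 0.33, with quartiles at 0.21 and 0.48, and the median coefficient of variation was 22.97%. The common biological coefficient of variation fitted by edgeR over 14302 genes was 35.1%. The median SD was 0.32 for genes from 20 to 50 CPM and 0.39 for the 116 genes above 1000 CPM, so that abundant genes were no steadier than modest ones. The steadiest genes with a mean of at least 100 CPM included Vdac2, a mitochondrial channel, with 221, 217, 217 and 218 CPM and an SD of 0.014. Emb, the membrane glycoprotein embigin, had an SD of 0.021, Sf3b2, a splicing factor, 0.035, Oat, ornithine aminotransferase, 0.036, Capn2, a calpain protease, 0.038, and Arpc5, a subunit of the actin-nucleating complex, 0.039. Cd14 was in this group too, at 4351, 4526, 4685 and 4434 CPM and an SD of 0.046. Stxbp2, a secretory fusion protein, Sept7, a septin, and Tmem167, a small membrane protein of the secretory path, made up the 10, with SDs of 0.038, 0.039 and 0.043. This evenness depended on the processing: after a correction for transcript length, described with the likeness of the libraries, the SD was 0.230 for Cd14, 0.121 for Vdac2, 0.209 for Sept7 and 0.263 for Tmem167, while that of Emb was 0.0401. The other 5 of these genes had corrected SDs from 0.0743 for Oat to 0.155 for Arpc5.

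**Figure D3:**
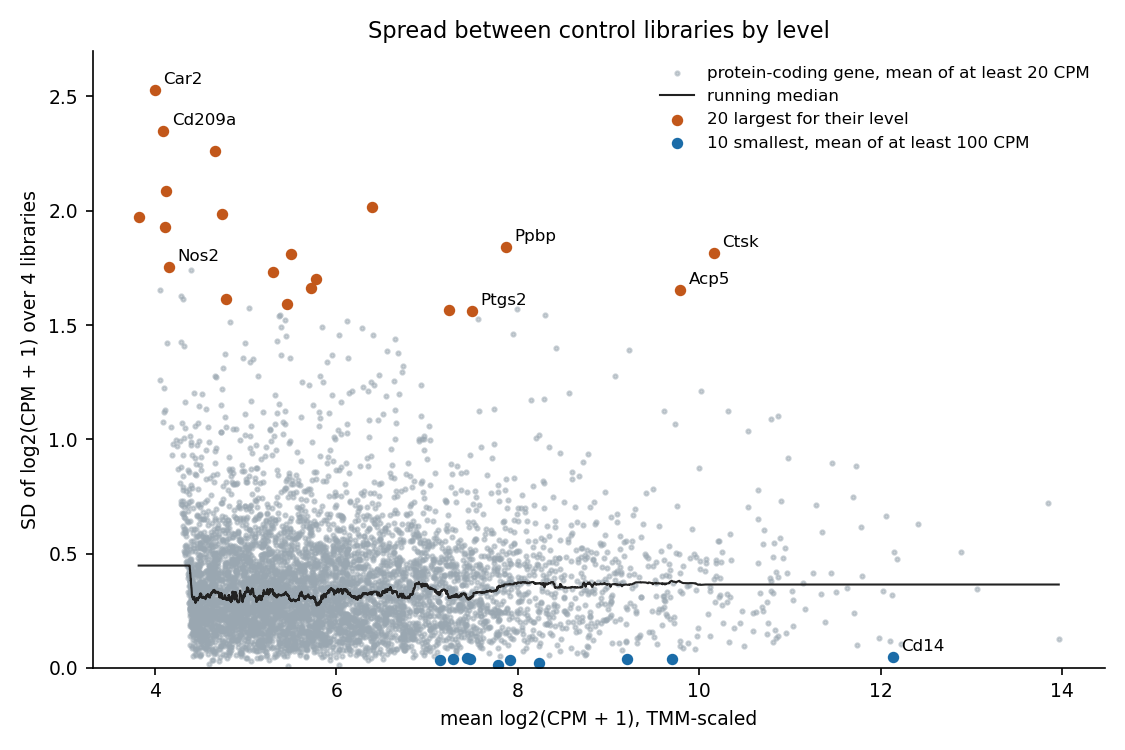
SD of log2(CPM + 1) over the 4 control libraries against the mean log2 level, 1 point per coding gene with a mean of at least 20 CPM, with the running median as a line. Car2 and Cd209a are the highest points, Ctsk, Acp5 and Ppbp stand out among abundant genes, and Cd14 lies close to 0.

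The libraries fell into 2 similar pairs. The correlation of log2 CPM across genes, which are not independent replicates, was 0.961 for replicates 1 and 2 and 0.939 for replicates 3 and 4, and lay between 0.857 and 0.898 for the other pairs. The median gene differed by 0.21 on the log2 scale within each of these pairs and by 0.42 to 0.51 between them. The first principal component held 66.9% of the variance and set replicates 1 and 2 against 3 and 4, and the second held 21.4% and set replicates 1 and 3 against 2 and 4. Library titles carry the code L5 for replicates 1, 3 and 4 and L4 for replicate 2, with no meaning given, and the 2 pairs do not follow that code. The pairs did move with transcript length, exon number and GC content. In the shortest 20% of genes, up to 1855 bases, the median deviation from the gene mean was 0.26, 0.37, -0.31 and -0.31 on the log2 scale. In the longest 20%, from 5206 bases, it was -0.12, -0.19, 0.15 and 0.18. For exon number the deviations were 0.13, 0.21, -0.18 and -0.15 in genes with up to 4 exons and -0.12, -0.20, 0.19 and 0.15 in those with 17 or more. For GC content they were -0.05, -0.16, 0.10 and 0.12 in the 20% of genes with the lowest GC share and 0.05, 0.16, -0.12 and -0.11 in the 20% with the highest. The pairs also differed in pseudogene reads, 11.6% and 11.1% against 9.30% and 9.19%. The parts of exon number and GC content in the pairing were not tested. After the library medians of 20 length bins had been removed, the correlation was 0.959 and 0.941 within the pairs and 0.883 to 0.919 between them.

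**Figure D4:**
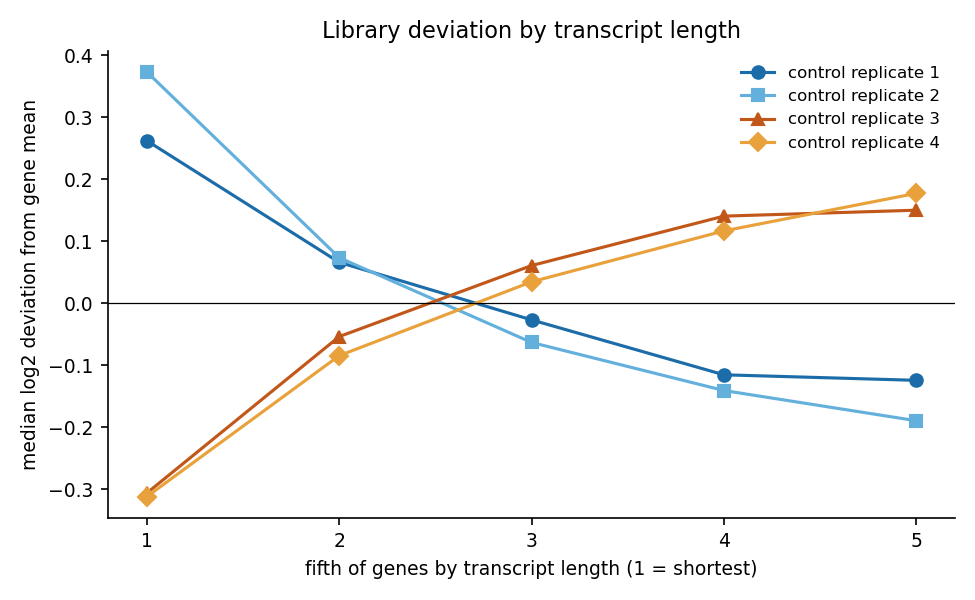
Median log2 deviation of a gene's CPM from its mean over the 4 control libraries, in 5 equal groups of genes by transcript length, 1 line per library. Replicates 1 and 2 go from 0.26 and 0.37 in the shortest group to -0.12 and -0.19 in the longest, and replicates 3 and 4 go the other way.

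A spread of at least 4-fold between the highest and lowest library was seen in 212 genes, 3.74% of the 5675, with Cd207 just inside at 4.00-fold and Pqlc3 just outside at 3.99-fold. Replicate 3 was the highest library for 116 of them (54.7%, against 28.2% of all 5675 genes) and replicate 2 the lowest for 105 (49.5%, against 33.0%). Leaving out replicate 2 left 140 such genes and leaving out replicate 3 left 116. Replicates 3 and 4 together lay above the gene mean in 105 of the 212, against 31.4% of all 5675 genes, and replicates 1 and 3 together in 24, against 7.21%. Of the 379 genes of the function lists at this level, 58 spread at least 4-fold, which is 15.3%, although those lists were drawn up with earlier results of these data known. After the length correction 180 genes spread at least 4-fold, 153 of them among the 212.

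Of the 20 genes with the largest spread for their level, 5 belonged to the list of bone-resorbing osteoclasts, which are multinucleate relatives of macrophages. Car2, carbonic anhydrase 2, which supplies protons for resorption, stood at 73.3, 0.59, 50.6 and 9.72 CPM. Ctsk, the collagen-degrading cathepsin K, stood at 3343, 218, 2762 and 852 CPM. Acp5, the tartrate-resistant acid phosphatase, stood at 2436, 189.6, 1808 and 730.2 CPM. All 3 were high in replicates 1 and 3, intermediate in replicate 4 and low in replicate 2. The fold between highest and lowest was 124 for Car2, 15.3 for Ctsk and 12.8 for Acp5. Dcstamp, a fusion protein, stood at 109, 9.27, 106 and 19.1 CPM, Oscar, a collagen receptor, at 48.7, 1.64, 39.5 and 15.99 CPM, and Slc9b2, a sodium-proton exchanger of osteoclasts, at 252, 13.01, 257 and 53.4 CPM. Atp6v0d2, the proton pump subunit of osteoclasts, stood at 253, 26.96, 294 and 78.5 RPKM, and Mmp9, a gelatinase, at 102, 13.7, 159 and 31.9 RPKM. Each of these repeated the order with replicates 1 and 3 above 4 and 4 above 2. The osteoclast-like list, drawn up with earlier results of these data known, summed to 4148, 313, 3741 and 1159 RPKM. Of its 10 members with a mean of at least 20 CPM, 7 spread at least 4-fold, against 3.74% of all 5675 coding genes at that level. The median of the 11 members at 5 CPM or more deviated by 1.18, -1.96, 1.27 and -0.51 on the log2 scale. Nfatc1, the transcription factor of osteoclast formation, had the same order within a narrower range, at 23.2, 6.04, 20.9 and 8.78 RPKM. Tnfrsf11a, the receptor for the osteoclast factor RANKL, was even at 16.9, 12.7, 15.9 and 12.6 RPKM, and so was Ostm1, a lysosomal membrane protein, at 4.32, 4.17, 5.30 and 6.26 RPKM. Calcr, the calcitonin receptor, stood at 0.12, 0, 0.40 and 0.03 RPKM and Itgb3, an integrin chain, at 0.32, 0.21, 0.23 and 0.35 RPKM, both near 0, and Siglec15 was under 1 CPM in all 4 libraries. Without replicate 2 the SD of log2 CPM was 1.07 rather than 1.81 for Ctsk, 0.907 rather than 1.65 for Acp5 and 1.49 rather than 2.53 for Car2. It was 0.825 rather than 1.93 for Oscar and 1.29 rather than 2.02 for Slc9b2. All 5 were picked for a large spread and were lowest in replicate 2, so a smaller SD without that library follows largely from the choice.

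The starts of Ctsk and Acp5, the highest osteoclast-like genes, are shown because their levels kept a ratio of Acp5 to Ctsk of 0.670, 0.798, 0.602 and 0.788 while both varied more than 10-fold. The 120 bases before the start lie at chr3:95499090-95499209 on the plus strand and at chr9:22135747-22135866 on the minus strand, with GAGGAA on either strand in capitals, which the Acp5 stretch does not hold.
Ctsk: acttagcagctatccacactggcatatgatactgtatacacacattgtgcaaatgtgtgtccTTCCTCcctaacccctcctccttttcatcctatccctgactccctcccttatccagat
Acp5: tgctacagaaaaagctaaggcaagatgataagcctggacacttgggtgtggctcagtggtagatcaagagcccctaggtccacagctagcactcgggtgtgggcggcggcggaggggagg
GAGGAA occurred on either strand within 250 bases before the start of 2 of the 6 osteoclast-like genes that matched, Ctsk and Oscar, against 23.1% of all promoters. None of the 6 held TATAAA, which 12.97% of all promoters held. None held CCAAT, against 34.5%. The palindrome CACGTG was in none, against 6.05%, and TGANTCA was in none, against 6.87%.

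Monocyte markers did not share 1 order. Their list summed to 3212, 3346, 2589.9 and 2213 RPKM, most of it S100a6 and S100a4 and highest in replicate 2. Summed in CPM it was 3457, 3507, 5015.5 and 2383.5, highest in replicate 3. Of the 11 members with a mean of at least 20 CPM, 5 spread at least 4-fold, against 3.74% of all 5675 coding genes at that level. Some of these 5 members, and some dendritic cell genes, had replicates 1 and 3 as their high libraries. Ly6c2, a surface antigen of inflammatory monocytes, stood at 41.3, 10.9, 89.8 and 6.04 RPKM. Plac8, which is high in monocytes, stood at 35.5, 10.2, 69.6 and 5.24 RPKM. Chil3, a chitinase-like secreted protein, stood at 51.8, 14.8, 119 and 11.6 RPKM. In these 3 replicate 3 was highest and replicate 4 lowest, whereas the osteoclast-like genes were lowest in replicate 2. Cd209a, a lectin of monocyte-derived dendritic cells, stood at 38.9, 4.43, 109 and 2.57 CPM, a 42.3-fold range. The list of other dendritic cells summed to 40.5, 6.30, 109.6 and 4.95 RPKM, with Ccr7, the homing receptor of migrating dendritic cells, at 3.99, 0.76, 13.3 and 1.19 RPKM and Ccl22, a dendritic cell chemokine, at 6.70, 1.17, 13.5 and 1.46 RPKM. Ccr2 on monocytes was highest in replicate 3 as well. Of 10 listed markers in that list, Cacnb3, Fscn1 and Siglech were under 1 CPM in all 4 libraries. The part of monocytes or dendritic cells in the spread of the macrophage genes was not tested. Among the 20 widest, 3 further genes were high in replicates 1 and 3, Coq8a, a mitochondrial kinase of coenzyme Q synthesis, at 78.4, 2.51, 98.4 and 13.9 CPM, Kbtbd11 at 45.5, 1.87, 40.8 and 6.12 CPM, and Cd200, a ligand of an inhibitory myeloid receptor, at 43.6, 1.19, 48.2 and 18.2 CPM. In all 3 replicate 4 lay between those libraries and replicate 2. Without replicate 2, their lowest library, the SD was 1.499 rather than 2.26 for Coq8a and 0.749 rather than 2.09 for Cd200.

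A second pattern set replicates 3 and 4 high against 1 and 2, and its genes were of mixed function. Cox6a1, a subunit of cytochrome c oxidase, stood at 12.5, 17.2, 179 and 92.4 CPM. Hist1h2bc, a histone H2B gene, stood at 10.2, 8.90, 81.4 and 62.5 CPM, with 15.1% of its reads placed at several loci. Ptgs2 stood at 94.03, 58.2, 649 and 285 CPM and Il1a at 19.4, 17.2, 48.9 and 197 CPM. Cd83, an activation marker chosen here after its values were seen, stood at 205, 345, 1575 and 1144 CPM. None of these had overlapping values between replicates 1 and 2 on the one side and 3 and 4 on the other. After the length correction the SD of Cox6a1 was 2.24 rather than 1.81, that of Hist1h2bc 1.98 rather than 1.61, that of Il1a 1.71 rather than 1.59, and that of Ptgs2 1.37 rather than 1.56. The transcripts of Cox6a1 and Hist1h2bc are in the shortest 20% and that of Ptgs2 is longer.

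Most of the remaining genes among the 20 had 1 library apart from the others. Nos2 was high in replicate 4, at 15.05, 7.35, 6.31 and 101 CPM. Mmp13, a collagenase of the matrix protease list, was high there as well, at 22.9, 18.1, 22.2 and 143 RPKM, and so was Mmp12, the macrophage elastase, at 124, 92.5, 72.04 and 462 RPKM. Iigp1, an interferon-induced GTPase, stood at 157, 218, 33.3 and 448 CPM and Cxcl9 at 103, 78.5, 8.49 and 114 CPM, both lowest in replicate 3. Ccl24 and Mgl2 were lowest in replicate 4, at 25.98, 47.3, 96.7 and 2.94 CPM and 72.6, 53.2, 175 and 10.1 CPM. Without replicate 3 the SD of log2 CPM of Cxcl9 was 0.271 rather than 1.70, and that of Iigp1 0.770 rather than 1.56. Without replicate 4 it was 0.596 rather than 1.75 for Nos2, 0.946 rather than 1.99 for Ccl24, 0.899 rather than 1.66 for Mgl2 and 0.814 rather than 1.59 for Il1a. Without replicate 2 that of Ppbp was 1.16 rather than 1.84. In each case the library left out was the highest or lowest of a gene picked for its spread, so a smaller SD follows largely from the choice.

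**Figure D5:**
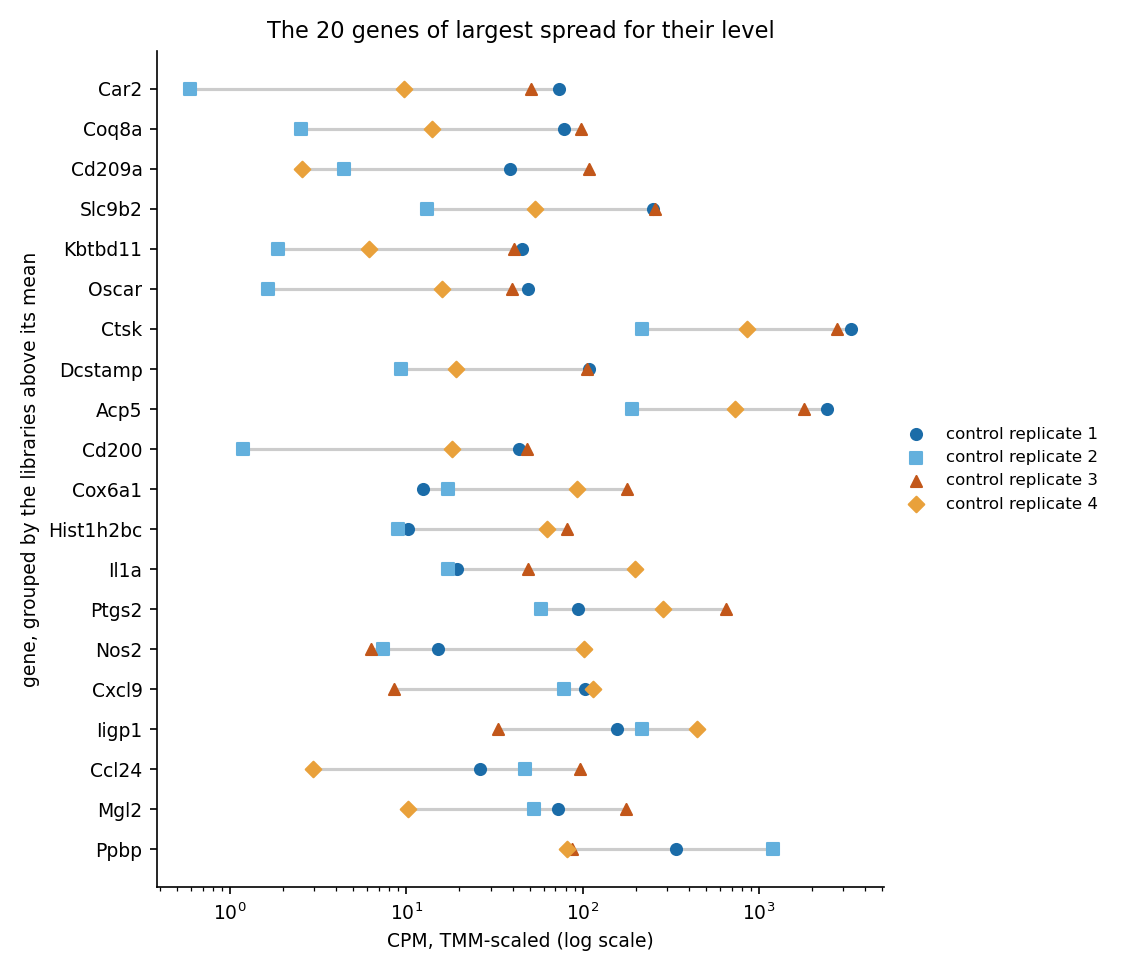
TMM-scaled CPM (log axis) of the 20 genes with the largest spread for their level, 1 point per control library and a grey line for the range. In 9 of the 20 genes replicates 1 and 3 alone lie above the gene mean, Cox6a1, Hist1h2bc, Il1a and Ptgs2 have replicates 3 and 4 to the right, and Ppbp has replicate 2 far to the right.

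Close gene copies limit some of the levels at the top. Lyz1, a lysozyme gene, stood at 2575, 5815, 1665 and 1869.9 RPKM, while Lyz2, the lysozyme gene that holds the Cre insertion in all mice of the study, stood at 100.4, 151, 85.2 and 77.9 RPKM. The CPM of Lyz2 was 0.0405, 0.0269, 0.0532 and 0.0433 of that of Lyz1, and the part of the insertion or of read placement between the 2 copies was not tested. The ferritin light chain reads lay mainly on copies, with Ftl1-ps1 at 3388, 5699, 2331 and 4238 RPKM against 579.9, 1107, 475 and 806 RPKM for Ftl1 itself, and 16.4% of the reads at Ftl1-ps1 were placed at several loci. The ratio of their CPM stayed between 3.38 and 4.02. Oaz1-ps had 2.32 to 2.48 times the CPM of Oaz1, the antizyme gene, and Rpl14-ps1 had 4.15 to 4.67 times that of the ribosomal protein gene Rpl14. Of the first 30 coding genes 5 had predicted or pseudogene names, including Gm7204, Gm9843 and Gm49339, which the deposited annotation describes as a leukocyte immunoglobulin-like receptor, at means of 2974 RPKM, 1457 RPKM and 1931 RPKM. Levels of such genes and of their parents are uncertain.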

How the data were processed

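RNA from sorted F4/80+ cells was amplified with the SMARTer ultra low kit, made into Nextera XT libraries and sequenced in pairs, per the labels' protocols. These kits do not mark strand, so reads of overlapping antisense genes cannot be told apart. Bowtie2 is named in the submitters' processing notes; its version and the build, gene models and counter behind the tables were, in the sources used here, not given. The authors deposited, per gene, unique read counts, expected counts that add shares of multiply placed reads, and RPKM of both kinds, per the file headers. Deposited RPKM were the unique counts over a gene length fixed across libraries within a ratio of 1.001. Genes listed in another control library only were set to 0. Symbols came from a mouse gene table and matched 20886 of 22932 listed genes.

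CPM used plain totals for detection and edgeR 4.0.16 TMM factors otherwise, in R 4.3.3, with DESeq2 1.42.0 size factors as an alternative. The lowest library was not taken under 3 reads, at most 0.0701 CPM on TMM-scaled totals, when a fold was taken. Transcript lengths came from GENCODE mouse release 21 on GRCm38 for 98.6% of the 5675 genes. Spread and length scripts were tested on simulated data. Precision covers counting and sampling of 4 libraries, with 42974524 to 51152370 reads each.

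The members, gene lists and rules were chosen with earlier results of these data known. Named genes were the 30 highest by mean RPKM, the 20 with the largest SD above a running median for their level, the 10 with the smallest SD from 100 CPM, up to 6 highest members of each list its members under 1 CPM in all libraries, and the 5 list members of largest spread. Other genes, among them Adgre1, Csf1r, Dicer1, Cd83 and the list members with a wide spread, were named for the marker check or after their values were seen. The Dicer1-deleted libraries were not used here, and the values of a few list members are not reported here. Alternatives covered scaling, filters, multiply placed reads and leaving out each library, and those on transcript length, predicted genes and read pairs were added after the data were seen.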

Additional observations from a re-analysis of the deposited data

Results flagged for a closer look

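Within the group of 4 libraries, 106 measures were searched for a library far from the other 3. They were the summed RPKM of 40 lists, the levels of the named genes, and measures of depth and composition. For independent measures not picked by their values, chance alone gives about 1 in 20. The named genes included those picked for a large or small spread in these same libraries, Nos2 among them, and lists shared members. In all, 3 stood out (2.83%), a share that cannot be set against that rate. The summed RPKM of the MHC class I list was 5289 in replicate 3 against 7847 to 8153 in the others, with B2m at 6104, 6400.2, 3321 and 5427 RPKM. After the correction for transcript length, B2m stood at 4334.5, 4435, 3544 and 6239 CPM. Replicate 3 was still lowest on that scale, but replicate 4 lay furthest from the others. The list sum was not recomputed with that correction. The summed RPKM of matrix proteases and inhibitors was 1832 in replicate 4 against 1053 to 1124 in the others, with Mmp12 at 124, 92.5, 72.04 and 462 RPKM and Mmp13 at 22.9, 18.1, 22.2 and 143 RPKM. Nos2 was at 23.4 RPKM in replicate 4 against 1.57 to 3.46 in the others.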

How the results depend on the processing

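Of 86 recomputed values of the main results, 74 stayed within the limits used: 1.5-fold for counts and SDs, the SD between libraries for shares, and the SD over the 6 pairs for correlations. The other 12 follow. By CPM instead of RPKM, 64 of the first 100 genes were shared. The 212 wide-spread genes became 1558 at 2-fold, 56 at 8-fold, 416 from a mean of 5 CPM and 62 from 100 CPM, and 116 to 208 when a library was left out. Pairwise correlation fell when only genes from 100 CPM were used, to 0.851 for replicates 1 and 3, 0.853 for 1 and 4, 0.788 for 2 and 3 and 0.816 for 2 and 4, and was 0.900 for 2 and 3 from 5 CPM. The list medians within the first 25% numbered 26 of 28 and 23 to 27 when a library was left out. Depth was not limiting, since 3 reads came to at most 0.0698 CPM on plain totals. No paired analysis was possible because only 1 group was described. With 4 libraries and no record of separate animals, spread between mice and technical spread cannot be told apart.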

Other observations

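The median member of the proliferation list stood in the top 20.8% of coding genes by RPKM, that of the hypoxia list in the top 20.7% and that of the glycolysis list in the top 6.88%. The proliferation list summed to 378, 332, 373 and 257 RPKM, with Stmn1, a tubulin-binding protein of dividing cells, at 68.6, 63.8, 40.5 and 28.5 RPKM and Top2a, a DNA topoisomerase, at 19.1, 13.9, 20.9 and 16.03 RPKM. All 20 members were detected above 1 CPM in at least 1 library, and replicate 4 had the lowest sum. The glycolysis list summed to 2826, 2714, 2383 and 3361 RPKM and the hypoxia list to 869, 932, 733 and 1112 RPKM, both highest in replicate 4, where Bnip3, a mitophagy receptor induced in low oxygen, stood highest among libraries at 171, 193, 159 and 348 RPKM. Slc2a1, a glucose transporter, stood at 63.4, 52.9, 61.1 and 119 RPKM. None of the members of these 3 lists with a mean of at least 20 CPM spread 4-fold, against 3.74% of all 5675 coding genes at that level.

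Genes of inhibitory receptors and of their ligands were present. Lgals9, galectin 9, had 167 ± 31.6 RPKM and Sirpa, the receptor for the signal that spares cells from phagocytosis, 71.5 ± 6.44 RPKM (SD, n = 4). Cd274, which encodes PD-L1, stood at 18.97, 11.7, 28.2 and 101 RPKM, highest in replicate 4 together with Nos2 and Tnf. Ido1 and Tnfsf4 were under 1 CPM in all 4 libraries. Among myeloid transcription factors, Fos was highest, Id2, an inhibitor of helix-loop-helix factors, had 364 ± 22.6 RPKM (SD, n = 4), and Gata6, the factor of peritoneal macrophages, was under 1 CPM in all 4 libraries.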
